A study of Mus musculus with 4 samples.

Results

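The ribosomal protein pseudogenes are copies of the genes for the proteins of the cytosolic ribosome. They were taken as every gene with a pseudogene biotype in the GENCODE M21 annotation of the mouse genome (GRCm38, the assembly of mm10) whose symbol begins with Rpl or Rps and carries the ending -ps. This gave 294 members among the 55401 gene identifiers counted. A further 6 symbols of the same form were annotated as protein_coding and were left out. The parent of a member is the gene whose symbol stands before -ps, for example Rps2 for Rps2-ps13. The values were counts of reads per gene in E18.5 oocytes of ICR mouse fetuses. Both groups came from mothers mated with normally fed males, and the mothers had received a normal diet (ND, 2 libraries) or a high-fat diet (HFD, 2 libraries) for 4 months. SSEA-1-positive female germ cells, labelled primordial germ cells of the ovary, were sorted by fluorescence, and poly(A) RNA was amplified with SMART-Seq2, a protocol for very small amounts of RNA. Each library was a pool of oocytes from several fetuses, so that differences between fetuses within a pool are averaged. How many litters a pool held is not given in the sources used here. No label says whether the pools of one diet shared mothers.

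Ribosomal proteins join with ribosomal RNA to form the small subunit (Rps proteins), which reads the mRNA, and the large subunit (Rpl proteins), which joins amino acids. Their short and abundant mRNAs have been copied back into the mammalian genome many times by the enzymes of retrotransposons, and the germline is where such a copy has to arise to be inherited. A processed pseudogene of this kind has no introns, usually lacks the promoter of its parent and collects mutations with age. Young copies are nearly identical to the parent mRNA, so that a short sequencing read may align to both.

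The 4 libraries stood apart from each other in ways that were not shared within a diet. Total counts ranged from 5723605 to 8223255, and 3 counts corresponded to 0.365 to 0.524 CPM, the count scaled to a common library total. All 10 germ cell markers had counts in every library, with Dazl the most abundant, and their summed level was 2076 and 3862 CPM in ND replicates 1 and 2 and 3558 and 739 CPM in HFD replicates 1 and 2. The 9 stroma markers, led by Col1a1, summed to 2843 and 69.0 CPM in ND and to 2222 and 7700 CPM in HFD, and no stroma marker was at 0 in any library. The 10 pregranulosa markers, which share Nr2f2 with the stroma list, summed to 196 to 1795 CPM, the 6 endothelium markers to 22.7 to 700 CPM and the 6 macrophage markers to 5.12 to 26.0 CPM. The 6 blood markers reached 1973 CPM in ND replicate 1 and 1.41 to 10.8 CPM in the others. The part of these differences in the values below was not tested, and in pooled cells a smaller number of cells of a type cannot be told apart from less RNA per cell.

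The members fell into 184 copies of large subunit genes and 110 copies of small subunit genes, from 62 parents. Of the members 287 were annotated as processed pseudogenes and 7 as transcribed processed pseudogenes, and 288 consisted of a single exon. Most (203) lay between genes, 81 lay in an intron of another gene and 10 overlapped an exon of another gene. In an intron, 26 had a host gene on the same strand and 55 only on the opposite strand. The X chromosome held 35 members, the most of any chromosome. Rpl31 had 24 members, Rps12 had 23 and Rpl21 had 15, the largest families. For 60 parents, covering 292 members, a protein_coding gene was counted. The parent of Rps4l-ps, Rps4l, is itself annotated as a transcribed processed pseudogene and held 15866 and 96 counts in ND and 1 and 1 in HFD (log2 fold change -12.35, SE 3.35, unadjusted p = 0.00813, adjusted p = 0.406 by the edgeR quasi-likelihood test described below). Rpl48, the parent of Rpl48-ps1, was not matched to a counted gene.

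Over the stretch aligned to the parent transcript, 288 members had an identity of 70.9% to 100%, with a median of 95.9%. In 55 members the identity was at least 99%, and in 12 it was 100%. Reading frames were measured from a start codon to a stop codon within the annotated sequence. By this measure 105 members had at least 95% of the codons of the parent and 118 had less than 50%. A frame still open at the annotated end was not counted. Rps13-ps2, identical to Rps13 over 453 bases, thus had a frame of 8 of 151 codons. The 118 are therefore not a count of lost frames. Of the 294 members 125 shared at least one 150-base window, the length of a read here, with the annotated transcript of another gene, and 169 shared none. For 12 members every window also occurred in the parent. How reads with several equally good positions were assigned is not given in the sources used here, so that counts on the 125 members may include reads of their parents or of other copies. Reads were trimmed and can be shorter than 150 bases. Among the 169, 69.1% of the 50-base windows of Rpl31-ps16 and 14.2% of those of Rpl13a-ps1 also occurred in another gene. Counts on the 169 are therefore not free of this doubt.

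Counts on most members were low. No count was found for 18 members, 79 never exceeded 3 counts, and 98 had a count in every library. A member was called detected in a library when it had more than 3 counts and more reads per kilobase of exon than 99% of the 1135 olfactory receptor genes, which are known for their role in the nose and served as a background. In the ND libraries 85 and 98 members (28.9% and 33.3%) were detected, and in the HFD libraries 98 and 46 (33.3% and 15.6%). Other processed pseudogenes were detected at 15.5% and 11.3% in ND and at 7.20% and 9.88% in HFD. The difference between both classes was not tested. With the limit taken from other -ps pseudogenes in place of the olfactory receptor genes, 6 and 20 members were detected in ND and 44 and 16 in HFD, so that the counts and the order of the libraries depended on the limit. The members were detected in no library in 116 cases, in 1 library in 83, in 2 in 54, in 3 in 28 and in all 4 in 13. Those in all 4 were Rpl34-ps1, Rpl10a-ps1, Rpl23a-ps3, Rpl31-ps17, Rps6-ps1, Rps15a-ps3, Rps15a-ps6, Rps18-ps1, Rps19-ps1, Rps19-ps3, Rps19-ps6, Rps19-ps7 and Rpsa-ps9. Both ND libraries and no HFD library detected 10 members, beside 2.69% of all identifiers. Both HFD libraries and no ND library detected 6, among them Rpl5-ps1 and Rpl5-ps2, beside 0.579%. As shares of the 294 members these were 3.40% and 2.04%, and of the other processed pseudogenes 1.94% and 0.513%.

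**Figure D1:**
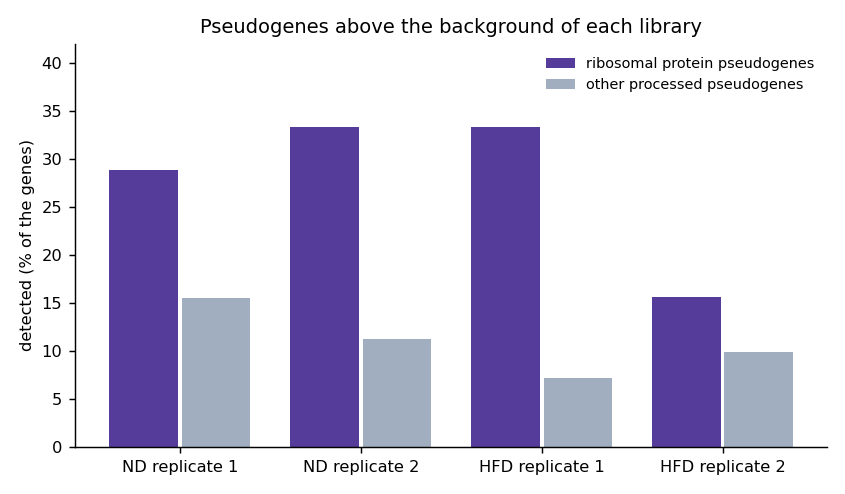
Share of the 294 ribosomal protein pseudogenes (purple) and of the other processed pseudogenes (grey) that were detected in each library, in percent of the genes of each class. The members were detected at 28.9% to 33.3% in ND replicates 1 and 2 and HFD replicate 1 and at 15.6% in HFD replicate 2.

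Detection went along with likeness to the parent. Of the 55 members with an identity of 99% or more, 80.0% were detected in some library, and they held 67.4% of the summed mean CPM of all members. A large part of this was Rps2-ps13, with a mean of 345 CPM, of which 89.4% came from ND replicate 2. The median mean CPM was 1.17 for these 55 members and 1.40 for the 40 members from 98% to under 99%. Of the 59 members under 90% identity, 49.2% were detected in some library, and these held 1.62%. Across 288 members the Spearman correlation of count and identity was 0.34 and 0.23 for ND and 0.38 and -0.01 for HFD, as a description over genes that share parents and library. Of the members without a shared 150-base window 55.6% were detected in some library, against 67.2% of the members with one. The 35 members on the X chromosome were detected in 48.6% of cases and the 259 on other chromosomes in 62.2%. Members in introns with a host on the same strand were detected in 76.9% of cases, members in introns with a host only on the opposite strand in 67.3% and members between genes in 56.2%.

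**Figure D2:**
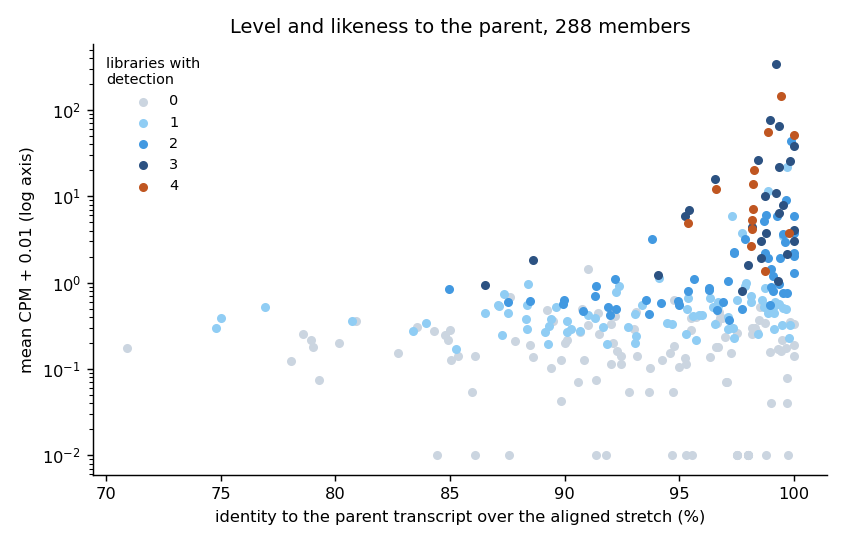
Identity of each of 288 members to its parent transcript (x axis, percent) against its mean CPM over the 4 libraries (y axis, log scale, 0.01 added), coloured by the number of libraries with detection. The highest mean levels, up to 345 CPM, were at an identity of 99% and above, and members below 90% stayed at or under 1.84 CPM.

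Summed over all members, ND replicate 1 held 5733 counts and ND replicate 2 held 20634, and HFD replicates 1 and 2 held 7716 and 2902. In relation to the library total these were 697 and 2640 CPM in ND and 1195 and 507 CPM in HFD, so that the diets overlapped. The means were 1669 ± 1374 CPM in ND and 851 ± 486 CPM in HFD (SD, n = 2 each), a log2 ratio of -0.97. The sign of this ratio rested on ND replicate 2, since it was 0.29 without that library. One member, Rps2-ps13, made up 46.7% of the summed counts of ND replicate 2, and without this member the log2 ratio was -0.21. For the 169 members with no shared 150-base window, a set chosen after the data were seen, the sums were 136 and 199 CPM in ND and 260 and 220 CPM in HFD, a log2 ratio of 0.51. The sign was thus opposite to that of all members together, but the diets overlapped after scaling by the trimmed mean of M values (TMM), with 134 and 212 CPM in ND and 376 and 146 CPM in HFD. Rpl31-ps16 held 46.7% of this sum in HFD replicate 2, and without it that library was at 117 CPM, below both ND libraries, and the log2 ratio was 0.17.

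The parents summed to 55076 ± 14004 CPM in ND and 29983 ± 19206 CPM in HFD (SD, n = 2 each), a log2 ratio of -0.88. Members made up 1.52% (95% exact binomial interval 1.48% to 1.56%) and 3.90% (3.85% to 3.96%) of the counts on members and parents in the ND libraries. In the HFD libraries they made up 2.67% (2.61% to 2.73%) and 3.0% (2.89% to 3.11%). Without molecular identifiers, such intervals describe counting error alone. Both HFD shares lay between the ND shares, and the mean share was 2.71% in ND and 2.83% in HFD. This order rested on Rps2-ps13, since without it the shares were 1.21% and 2.12% in ND and 2.67% and 3.0% in HFD. The difference of the means, HFD minus ND, was 0.12 percentage points with all members and 1.17 without Rps2-ps13. With all members it was -1.07 without ND replicate 1 and 1.31 without ND replicate 2. Other processed pseudogenes summed to 9919 ± 335 CPM in ND and 7271 ± 481 CPM in HFD (SD, n = 2 each). No test over samples was run on these sums, because 2 libraries against 2 cannot give an exact permutation p below 0.333.

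**Figure D3:**
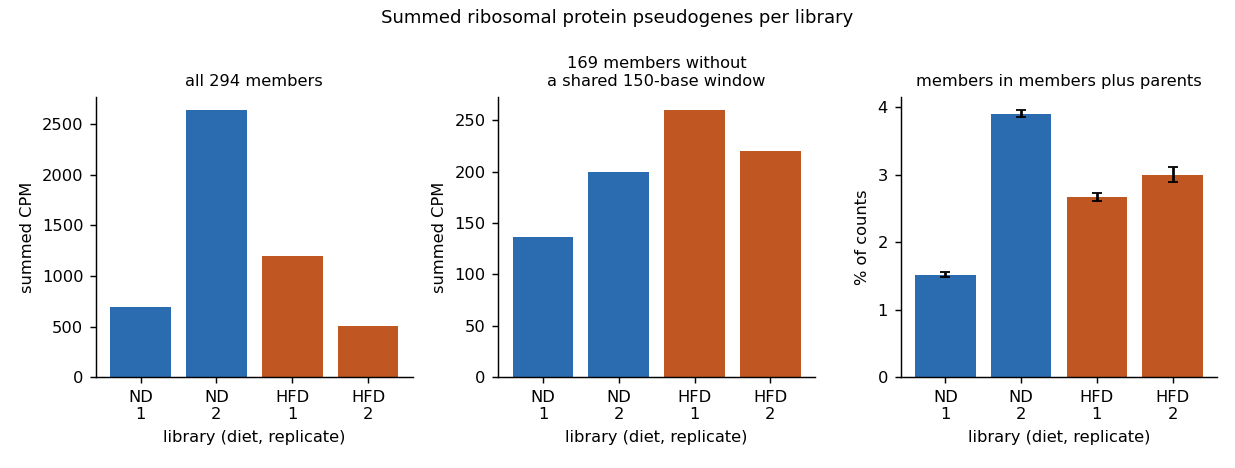
Summed CPM of all 294 members (left), summed CPM of the 169 members without a shared 150-base window (middle) and the share of members in the counts on members plus parents (right, percent, bars with exact 95% binomial intervals), for each ND (blue) and HFD (orange) library. On the left ND replicate 2 stands highest at 2640 CPM, and in the middle both HFD libraries, at 260 and 220 CPM, stand above both ND libraries, an order that did not hold after TMM scaling or without Rpl31-ps16.

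The diets were compared for single genes with the quasi-likelihood test of edgeR over all genes that passed its filter on low counts and the Benjamini-Hochberg method. With limits of 0.05 for the adjusted p and of 1.5 for the fold change, 0 of 58 members tested were called, beside 0 of 19335 genes (0.00%). The smallest adjusted p was 0.406, for members and for all genes. At an unadjusted p under 0.05, 7 members were higher in HFD, beside 4.82% of all genes tested, and 5 were lower, beside 6.41%. DESeq2 on all genes called 8 of the 22 members to which it gave an adjusted p, 3 higher and 5 lower in HFD, beside 29.7% and 25.5% of all genes with an adjusted p. These were Rpl10-ps6, Rpl17-ps3, Rpl3-ps2, Rpl31-ps16, Rpl35a-ps6, Rps18-ps1, Rps2-ps13 and Rpsa-ps10, and each had most of its counts in a single library. The other 236 members did not pass the filter of edgeR, and a member with high counts in one diet could pass through that diet alone, so the 58 are not a sample of all members. The sign of the log2 fold change turned without HFD replicate 1 for Rpl10-ps6, Rpl10a-ps1, Rps19-ps3 and Rps19-ps6, without ND replicate 2 for Rpl14-ps1, Rpl3-ps1 and Rps2-ps10, without HFD replicate 2 for Rpl14-ps1 and without ND replicate 1 for Rps19-ps6. For Rpl5-ps1, Rpl5-ps2, Rpl31-ps8, Rpl34-ps1, Rpsa-ps9, Rpsa-ps10, Rps2-ps13, Rps2-ps7, Rps18-ps1, Rps19-ps1 and Rps19-ps7 it kept its sign with each library left out in turn. Rpsa-ps12 kept it in 3 of these fits and did not pass the filter without HFD replicate 1. For all members that kept the sign, the CPM values of the diets were already separate. These fits used TMM scaling, after which the diets overlapped for Rpl34-ps1. Its CPM was 144 in ND replicate 1 and 120 in HFD replicate 1, with TMM factors of 1.02 and 0.692. With a library left out its log2 fold change ranged from -8.73 to -0.43. For the other members that kept the sign, leaving out a library could hardly turn it, so these fits do not test how stable it is. Without HFD replicate 1, 6 of 80 members were higher and 18 were lower in HFD at an unadjusted p under 0.05, beside 5.99% and 7.28% of 26007 genes. Without HFD replicate 2, 14 of 88 were higher and 2 were lower, beside 8.64% and 6.74% of 23070 genes. The median log2 fold change of the 58 was 0.73, beside 0.03 for all genes tested. It was -0.04 with a replicate block, 0.05 for the 276 members with a count when no filter was set, 0.13 for these in DESeq2, and -2.78 for the 80 members tested without HFD replicate 1.

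In CPM, both HFD libraries lay above both ND libraries for 39 members (13.3%), beside 12.3% of all identifiers. They lay below both for 42 members (14.3%), beside 11.2%. Values of one diet differed strongly between its libraries. Among the members with at least 10 counts in either library of a diet, the median difference between the libraries was 4.57-fold in ND (76 members) and 11-fold in HFD (71 members). For the cytosolic ribosomal protein genes (79 genes) it was 3.85-fold and 7.87-fold, and for all identifiers with such counts 1.92-fold and 3.18-fold. Of 13 members that reached 50 CPM in some library, 8 did so in exactly 1 library and 0 in every library.

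**Figure D4:**
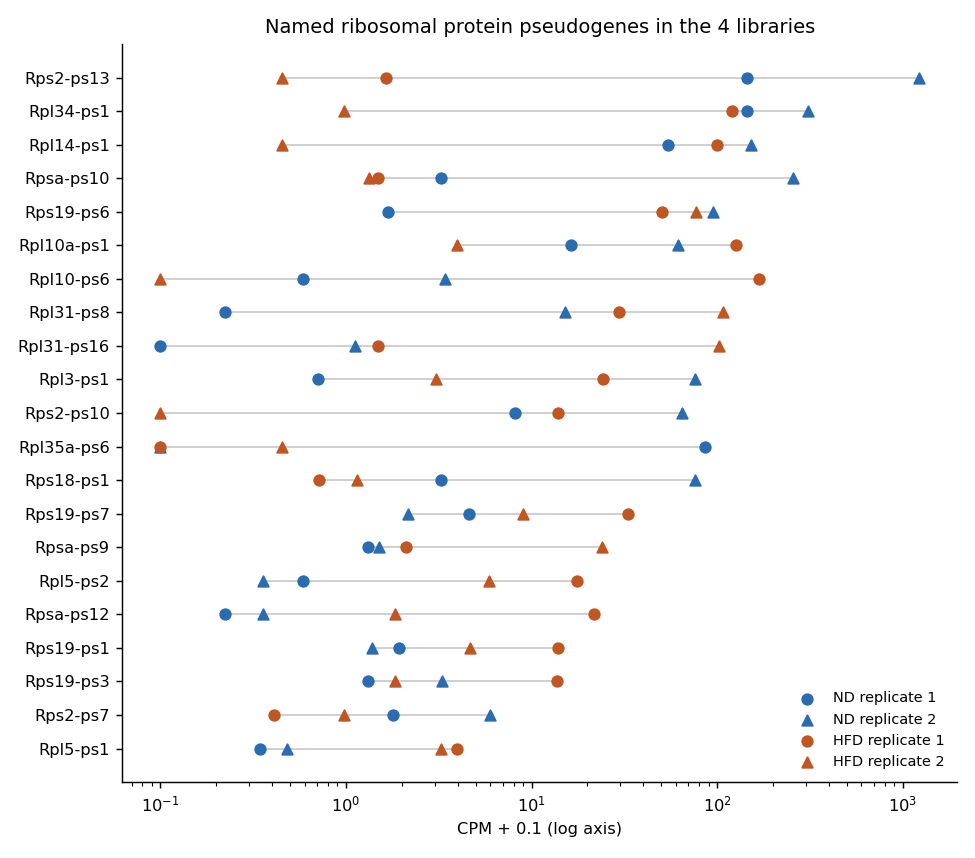
CPM (log axis, 0.1 added) of 21 members in the ND (blue) and HFD (orange) libraries, replicate 1 as circles and replicate 2 as triangles, ordered by mean CPM. In most rows the 2 libraries of a diet lie far apart, as for Rpl10-ps6 with 169 and 0 CPM in HFD. Both HFD libraries lie above both ND libraries for Rpl5-ps1, Rpl5-ps2, Rpl31-ps8, Rpl31-ps16, Rps19-ps1, Rps19-ps7, Rpsa-ps9 and Rpsa-ps12. They lie below both for Rps2-ps13, Rps2-ps7, Rpl34-ps1, Rpsa-ps10 and Rps18-ps1, an order that did not hold for Rpl34-ps1 after TMM scaling. For Rpl35a-ps6 the symbols of ND replicate 2 and HFD replicate 1 coincide at 0 CPM.

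The most abundant member was Rps2-ps13, a single-exon copy of Rps2, which encodes a protein of the small subunit near the mRNA entry. It lies between genes on the X chromosome (ENSMUSG00000081684.4, chrX:52898588-52899469, plus strand), with an identity of 99.2% to Rps2 and a reading frame of the full 293 codons. Its counts were 1187 and 9639 in ND and 10 and 2 in HFD, and both HFD libraries lay below both ND libraries. The log2 fold change was -9.21 (SE 2.89, unadjusted p = 0.0188, adjusted p = 0.406 by edgeR). Rps2 itself had 3704 and 13568 counts in ND and 4111 and 24 in HFD (log2 fold change -1.32, SE 2.64, adjusted p = 0.902). In HFD replicate 1 the parent was thus at a count between those of the ND libraries, whereas the pseudogene was at 10 counts. Of the 150-base windows of Rps2-ps13, 68.1% also occurred in another gene, so its counts may include reads of other genes. In the 3 libraries in which Rps2 was abundant, Rps2-ps13 took 24.3%, 41.5% and 0.243% of the counts on the pair. Rps2-ps7 (chr16:18681337-18682216, minus strand), with an identity of 97.4% and no shared 150-base window, had 14 and 46 counts in ND and 2 and 5 in HFD (log2 fold change -2.90, SE 0.74, unadjusted p = 0.0063). Rps2-ps10, in an intron of Pde6a on the opposite strand, had 66 and 508 counts in ND and 89 and 0 in HFD, and the diets overlapped. The first 90 coding bases of Rps2 are shown with the same stretch of Rps2-ps13 (chrX:52898588-52898677) and Rps2-ps7 (chr16:18682127-18682216) from GENCODE M21 transcripts on GRCm38, to show how few positions tell them apart. Capitals mark bases that differ from the parent.
Rps2: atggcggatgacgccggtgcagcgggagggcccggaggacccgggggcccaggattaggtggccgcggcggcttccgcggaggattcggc
Rps2-ps13: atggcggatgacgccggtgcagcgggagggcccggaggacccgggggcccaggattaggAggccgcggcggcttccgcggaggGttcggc
Rps2-ps7: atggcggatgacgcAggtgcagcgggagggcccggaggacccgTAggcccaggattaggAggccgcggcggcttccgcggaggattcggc

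The copies of Rpsa, which encodes a small subunit protein also described as a laminin receptor, included 3 that were highest in different libraries. Rpsa-ps10 (ENSMUSG00000047676.6, chr3:150072658-150073542, minus strand) had 26 and 2014 counts in ND and 9 and 7 in HFD. Its log2 fold change was -6.61 (SE 2.39, unadjusted p = 0.0323), and 97.8% of its summed CPM came from ND replicate 2. Rpsa-ps12 (chr4:149142497-149143388, minus strand) had 1 and 2 counts in ND and 139 and 10 in HFD (unadjusted p = 0.00734). Over the pooled libraries this was a ratio of 65.4 (95% exact interval 21.9 to 321), and without HFD replicate 1 it was 9.34 (2.41 to 52.8). Both intervals hold counting error only and leave out the spread between libraries. Since Rpsa-ps12 was named for its small p, they carry no weight on a difference between the diets. Rpsa-ps9 (chr2:28477166-28478050, plus strand) had 10 and 11 counts in ND and 13 and 136 in HFD (log2 fold change 2.79, SE 0.91, unadjusted p = 0.0214). Rpsa-ps10 therefore peaked in ND replicate 2, Rpsa-ps12 in HFD replicate 1 and Rpsa-ps9 in HFD replicate 2. The parent had its own highest count in the remaining library, with 14544 and 3724 counts in ND and 4158 and 5378 in HFD (log2 fold change -0.53, SE 1.87, adjusted p = 0.955). All 9 copies together took 0.452% and 35.3% of the family counts in ND and 4.22% and 3.17% in HFD. Within the annotated sequence, the longest frame from start to stop codon was 34 codons in Rpsa-ps10, 74 in Rpsa-ps9 and 122 in Rpsa-ps12. The frame of Rpsa has 295 codons. Rpsa-ps10 is annotated over 885 bases and aligned to Rpsa without a gap. A frame still open at the annotated end was not counted, so these values do not show that the frame was lost. The coding bases 208 to 297 of Rpsa are given with the stretches of Rpsa-ps10 (chr3:150073246-150073335), Rpsa-ps9 (chr2:28477372-28477461) and Rpsa-ps12 (chr4:149143088-149143177), with differing bases in capitals, to show that the copies differ from each other as well as from the parent.
Rpsa: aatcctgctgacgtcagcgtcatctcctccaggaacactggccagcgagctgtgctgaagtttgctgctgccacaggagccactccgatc
Rpsa-ps10: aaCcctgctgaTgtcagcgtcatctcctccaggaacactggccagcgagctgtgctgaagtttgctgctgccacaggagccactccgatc
Rpsa-ps9: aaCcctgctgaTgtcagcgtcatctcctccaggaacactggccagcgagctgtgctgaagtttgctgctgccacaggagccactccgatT
Rpsa-ps12: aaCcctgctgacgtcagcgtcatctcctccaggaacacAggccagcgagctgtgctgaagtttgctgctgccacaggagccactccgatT

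The smallest unadjusted p values among the members belonged to the copies of Rpl5, a large subunit protein that binds 5S ribosomal RNA. Rpl5-ps1 (chr1:14865072-14865965, plus strand), with a reading frame of all 297 codons, had 2 and 3 counts in ND and 25 and 18 in HFD (log2 fold change 3.50, SE 0.74, unadjusted p = 0.00214). Rpl5-ps2 (ENSMUSG00000082064.3, chr2:154703809-154704699, plus strand) had 4 and 2 counts in ND and 113 and 33 in HFD (log2 fold change 5.20, SE 1.10, unadjusted p = 0.00246). The adjusted p was 0.406 for both, and both HFD libraries lay above both ND libraries. Rpl5 was also at higher counts in HFD, without passing the test, with 10226 and 4549 counts in ND and 36303 and 12114 in HFD (log2 fold change 2.37, SE 2.18, adjusted p = 0.712). The copies remained a small part of the family, at 0.0586% and 0.11% in ND and 0.379% and 0.419% in HFD. Coding bases 601 to 690 of Rpl5 are given beside Rpl5-ps1 (chr1:14865672-14865761) and Rpl5-ps2 (chr2:154704406-154704495), with differing bases in capitals, to show that the copies differ from Rpl5 at different positions.
Rpl5: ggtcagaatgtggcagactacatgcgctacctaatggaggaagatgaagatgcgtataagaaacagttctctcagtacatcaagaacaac
Rpl5-ps1: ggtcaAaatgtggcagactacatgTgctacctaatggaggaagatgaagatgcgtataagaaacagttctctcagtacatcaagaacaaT
Rpl5-ps2: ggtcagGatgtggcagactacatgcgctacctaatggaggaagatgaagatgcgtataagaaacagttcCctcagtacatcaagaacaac

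Of the 6 members with at least 10 counts in every library, 4 were copies of Rps19, a small subunit gene that is mutated in an inherited anaemia. Rps19-ps6 (ENSMUSG00000096942.1, chr12:110898114-110898551, plus strand) lies in an intron of Tecpr2 on the same strand and had 13 and 738 counts in ND and 325 and 438 in HFD. Rps19-ps7 (chr2:140073032-140073469, minus strand) had 37 and 16 counts in ND and 212 and 51 in HFD (log2 fold change 3.0, SE 1.20, unadjusted p = 0.0474). Rps19-ps1 (chr14:53213730-53214167, plus strand) had 15 and 10 counts in ND and 89 and 26 in HFD (log2 fold change 2.84, SE 0.97, unadjusted p = 0.0257). Both HFD libraries lay above both ND libraries for Rps19-ps7 and Rps19-ps1, with an adjusted p of 0.406 each, and the diets overlapped for Rps19-ps6. Rps19-ps3 (chr4:147821777-147822202, minus strand) had 10 and 25 counts in ND and 88 and 10 in HFD. Rps19 itself stood the other way round, with 8583 and 7941 counts in ND and 4021 and 2766 in HFD, although its difference was smaller than its error (log2 fold change -0.79, SE 1.82, adjusted p = 0.919). The 14 copies took 1.15% and 9.27% of the family counts in ND and 15.6% and 16.9% in HFD. Rps19-ps7 and Rps19-ps3 had no shared 150-base window, whereas every window of Rps19-ps1 also occurred in another annotated gene. The stretch at coding bases 317 to 406 of the Rps19 transcript aligned here is given with Rps19-ps6 (chr12:110898430-110898519), Rps19-ps1 (chr14:53214046-53214135), Rps19-ps7 (chr2:140073064-140073153) and Rps19-ps3 (chr4:147821809-147821898), with differing bases in capitals, to show the differences that all 4 copies share.
Rps19: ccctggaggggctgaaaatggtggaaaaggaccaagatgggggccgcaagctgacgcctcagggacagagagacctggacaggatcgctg
Rps19-ps6: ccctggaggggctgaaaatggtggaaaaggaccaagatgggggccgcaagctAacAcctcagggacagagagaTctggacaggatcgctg
Rps19-ps1: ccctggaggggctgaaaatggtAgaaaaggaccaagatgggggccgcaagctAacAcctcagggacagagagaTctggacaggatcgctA
Rps19-ps7: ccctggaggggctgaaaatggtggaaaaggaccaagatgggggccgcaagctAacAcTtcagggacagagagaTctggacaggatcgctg
Rps19-ps3: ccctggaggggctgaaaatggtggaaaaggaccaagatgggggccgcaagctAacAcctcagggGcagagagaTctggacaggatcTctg

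Rpl34-ps1 kept a similar share of its family in every library. This member (ENSMUSG00000068396.9, chr6:71124610-71124963, plus strand), a copy of the large subunit gene Rpl34 with 2 differing bases and all 117 codons, had 1187 and 2412 counts in ND and 777 and 5 in HFD. Rpl34 had 4114 and 10533 counts in ND and 2716 and 27 in HFD. The share of the pseudogene in the pair was 22.4% and 18.6% in ND and 22.2% and 15.6% in HFD, so that copy and parent were low together in HFD replicate 2. In HFD replicate 2 this share rests on 5 counts. The shares of Rpl14-ps1 and Rpl3-ps1 varied by a larger factor. Rpl14-ps1 (chr7:45324965-45325617, plus strand), in an intron of Trpm4 on the opposite strand, had 445 and 1195 counts in ND and 642 and 2 in HFD. Its share beside the large subunit gene Rpl14 was 4.23% and 3.53% in ND and 2.97% and 7.14% in HFD, the last from 2 counts. Rpl3-ps1 (chrX:13202571-13203780, plus strand) had 5 and 591 counts in ND and 156 and 17 in HFD, and its share beside Rpl3, whose protein lies near the site of peptide bond formation, was 3.18% and 4.46% in ND and 2.15% and 1.34% in HFD. For these 3 members the log2 fold changes were -1.44, -0.59 and -1.14 and the adjusted p values by edgeR were 0.874, 0.960 and 0.898. Of their 150-base windows 59.5%, 53.6% and 94.5% also occurred in another gene.

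Other abundant members were found almost only in 1 library. Rpl10-ps6 (ENSMUSG00000080885.1, chr19:37295155-37295796, minus strand), in an intron of Ide on the same strand, had 4 and 26 counts in ND and 1090 and 0 in HFD. It differs from Rpl10, a large subunit gene, by 1 base in the aligned 642, and took 49.3% of the counts on the pair in HFD replicate 1, where Rpl10 stood at 1120 counts, beside 19464 and 16007 in ND and 7822 in HFD replicate 2. Rpl35a-ps6 (chr5:123255481-123255813, minus strand), in an intron of Wdr66 on the opposite strand, had 707 and 0 counts in ND and 0 and 2 in HFD. Rpl35a, a large subunit gene, had 8171 and 6717 counts in ND and 4372 and 49 in HFD, so that the parent was abundant in ND replicate 2 and HFD replicate 1 as well, where the copy was at 0. Every 150-base window of Rpl35a-ps6 also occurred in another gene, as did 70.6% of those of Rpl10-ps6. How such reads were assigned is not known, so the counts may not belong to these 2 copies alone. Rpl31-ps16 (chr17:85498633-85499008, plus strand), with no shared 150-base window, had 0 and 8 counts in ND and 9 and 587 in HFD. Rps18-ps1 (chr4:71370738-71371196, minus strand), with no shared window and all 152 codons, had 26 and 592 counts in ND and 4 and 6 in HFD (log2 fold change -5.69, SE 1.69, unadjusted p = 0.0138). Rps18, which encodes a protein of the head of the small subunit, had 1973 and 11290 counts in ND and 8152 and 92 in HFD (log2 fold change 0.04, SE 2.55, adjusted p = 0.998). Rps18 was thus abundant in HFD replicate 1, where its copy had 4 counts. Rpl31-ps16 and Rpl35a-ps6 did not pass the filter of edgeR and have no test. The stretches of Rps18-ps1 (chr4:71371084-71371173), Rpl31-ps16 (chr17:85498665-85498754) and Rpl10-ps6 (chr19:37295340-37295429) are given with their parents, with differing bases in capitals, since each of these copies was high in 1 library alone.
Rps18: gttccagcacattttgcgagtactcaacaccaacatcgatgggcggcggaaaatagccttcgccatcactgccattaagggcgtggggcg
Rps18-ps1: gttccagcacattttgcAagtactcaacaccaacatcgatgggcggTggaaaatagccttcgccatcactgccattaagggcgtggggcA
Rpl31: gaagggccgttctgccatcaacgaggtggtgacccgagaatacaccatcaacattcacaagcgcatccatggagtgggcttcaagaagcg
Rpl31-ps16: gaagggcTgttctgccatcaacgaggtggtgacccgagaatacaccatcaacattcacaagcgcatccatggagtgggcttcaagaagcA
Rpl10: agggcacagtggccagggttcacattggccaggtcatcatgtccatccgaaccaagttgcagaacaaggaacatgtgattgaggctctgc
Rpl10-ps6: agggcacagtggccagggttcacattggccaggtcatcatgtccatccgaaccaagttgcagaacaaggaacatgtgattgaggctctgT

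The copies of Rpl31, the family with the most members, had the highest summed counts of any family in HFD replicate 2. The copies of Rps2 led in both ND libraries and those of Rpl10 in HFD replicate 1. The 24 copies of Rpl31, a large subunit gene, summed to 38 and 187 counts in ND and 251 and 1400 in HFD, beside 41 and 4918 counts of Rpl31 in ND and 2098 and 7985 in HFD (log2 fold change of Rpl31 1.06, SE 2.38, adjusted p = 0.917). In HFD replicate 2, Rpl31-ps8 (chr15:90764279-90764656, minus strand) and Rpl31-ps16 held 617 and 587 of these counts. Rpl31-ps8 is identical to Rpl31 over 378 bases and had 1 and 117 counts in ND and 191 in HFD replicate 1. The 23 copies of Rps12, a small subunit gene, summed to 46 and 41 counts in ND and 297 and 18 in HFD, with Rps12 at 1567 and 2642 in ND and 7109 and 314 in HFD. All 15 copies of Rpl21, a large subunit gene, had over 3 counts in some library, and they summed to 231 and 222 counts in ND and 92 and 36 in HFD, with Rpl21 at 12069 and 52832 in ND and 6670 and 1951 in HFD. Copies took 1.88% and 0.418% of the Rpl21 family in ND and 1.36% and 1.81% in HFD. In the Rpl31 family the share reached 48.1% in ND replicate 1, where Rpl31 had 41 counts, and in the Rpl23a family 53.8% in HFD replicate 2, where Rpl23a had 24 counts.

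**Figure D5:**
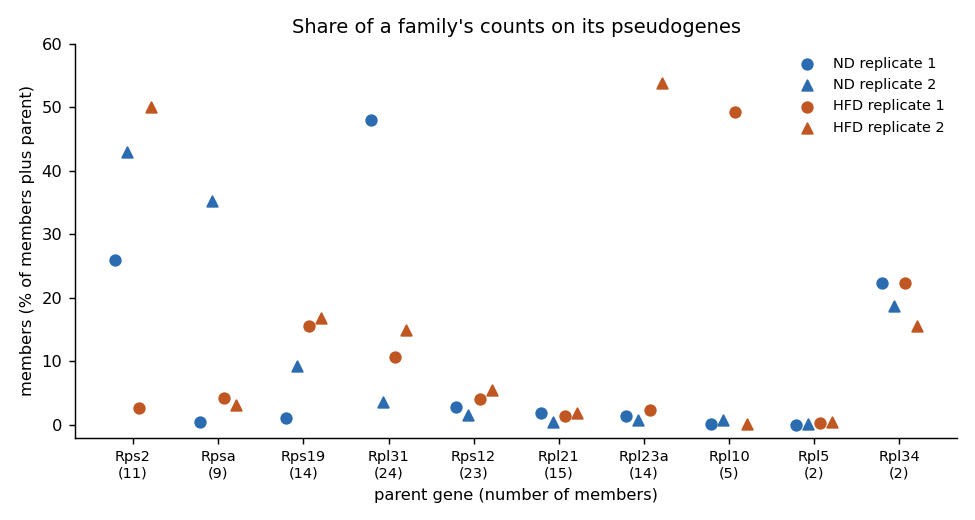
Share of a family's counts (members plus parent, percent) that fell on its pseudogenes, for 10 parents in the ND (blue) and HFD (orange) libraries, with the number of members under each name. The Rpl34 family stays between 15.6% and 22.4%, whereas the Rps2, Rpsa and Rpl10 families move between under 5% and over 35% from library to library.

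Among the 12 members identical to their parent over the aligned stretch, counts ranged widely. Rpl10a-ps1 (ENSMUSG00000084416.3, chr1:64993951-64994604, minus strand), identical to the large subunit gene Rpl10a over 654 bases, had 133 and 481 counts in ND and 812 and 22 in HFD. Rpl10a had 8203 and 14336 counts in ND and 2359 and 64 in HFD, so the copy took 1.60% and 3.25% of the pair in ND and 25.6% and 25.6% in HFD. In HFD replicate 2 this share rests on 22 and 64 counts. Every 150-base window of Rpl10a-ps1 also occurred in Rpl10a. The shares and the fold changes of the pair therefore depend on how shared reads were assigned, which is not known. The log2 fold change of Rpl10a-ps1 was 1.17 (SE 1.98, adjusted p = 0.878) and that of Rpl10a was -2.46 (SE 2.45, adjusted p = 0.739). At the other end Rpl10-ps1, Rpl15-ps3 and Rps23-ps1 had at most 4, 2 and 2 counts in any library.

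Members exceeded their parent in counts in few cases. Rpl13a-ps1 (chr19:50030124-50030735, minus strand), with an identity of 95.3% and no shared 150-base window, had 5 and 27 counts in ND and 67 and 54 in HFD. Rpl13a, a large subunit gene, had 46 and 343 counts in ND and 12 and 14 in HFD. Per kilobase of exon the copy was at 109 and 88.2 reads in HFD and the parent at 5.68 and 6.62. The log2 fold change was 2.30 (SE 1.08, unadjusted p = 0.0762) for the copy and -3.59 (SE 1.21, unadjusted p = 0.0252) for the parent, with an adjusted p of 0.406 for each, and both groups of libraries were separate in opposite order. Rps6-ps1, a copy of the small subunit gene Rps6, had 25 counts against 19 of Rps6 in HFD replicate 2. Rpl13a-ps1 and Rps6-ps1 were named after their values were seen, as were Rpl15-ps2 with 29 and 134 counts in ND and 1 and 0 in HFD (unadjusted p = 0.0332) and Rpl31-ps17 with 7 and 13 counts in ND and 12 and 71 in HFD (unadjusted p = 0.0326). The median log2 ratio of member to parent count, with 1 count added to each, was -9.61 and -10.31 in ND and -9.87 and -7.34 in HFD over 292 members.

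Of the 79 cytosolic ribosomal protein genes counted, 0 were called between the diets by edgeR. At an unadjusted p under 0.05 in the same test, 0 were higher and 4 were lower in HFD, beside 4.82% and 6.41% of all genes tested. The median log2 fold change of the 79 was -0.88, beside 0.03 for all genes tested. By mean CPM the highest were Rpl4, Rpl21 and Rpl5 (5598, 2400 and 2391 CPM), as counts that are not scaled to gene length. The 79 genes summed to 67463 and 94310 CPM in ND and 69433 and 28130 CPM in HFD.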

How the data were processed

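Read counts per gene were used as deposited. Per the labels and the study's methods, the authors checked reads with FastQC, trimmed adapters with Trim Galore, used HISAT2 for alignment to the mm10 assembly, and obtained counts per Ensembl gene with featureCounts. The annotation release, the strand setting and the handling of reads with several alignments are not given in the sources used here. Symbols, biotypes, positions and transcripts came from GENCODE M21, which lacked 260 identifiers. CPM is a count over the library total. Diets were compared in R 4.3.3 with edgeR 4.0.16 (TMM, filterByExpr, quasi-likelihood fit with legacy FALSE, Benjamini-Hochberg). The fit was also run on simulated counts whose spread was preset and not taken from these libraries. That run therefore gives no error rate or power for these data. Standard errors are the size of a log2 fold change divided by the root of its F statistic. DESeq2 1.42.0 and limma 3.58.1 were alternatives. Members were aligned to the coding transcripts of their parents with blastn 2.17.0 (E value up to 1e-05). Windows were compared on both strands.

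Named members were the 12 with the highest mean CPM, those with at least 10 counts in every library, the 4 smallest p values in each direction and 4 members at 50 CPM or more concentrated in 1 library. Their parents, the 3 parents with most members and the 3 highest ribosomal protein genes by mean CPM were also named. The 3 lowest, also part of the rule, are not reported here. Members, lists and tests were chosen with earlier results of these data known. With 2 libraries a diet, the labels do not say that pools are independent litters, so p values measure the spread between these libraries.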

Additional observations from a re-analysis of the deposited data

How the results depend on the processing

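No member was called under any edgeR or limma-voom setting (other normalizations, other filters, replicate block, no fold change minimum, each library left out). DESeq2 on all genes called 8. At an unadjusted p under 0.05 stood 12 of 58 members (2171 of 19335 genes), 23 of 276 with no filter (4031 of 49005), 3 of 6 with at least 10 counts in every library (1301 of 9677), 25 of 276 in DESeq2 (3182 of 49005) and 11 to 24 of 80 to 88 with a library left out (2682 to 3855 of 23070 to 26007). The replicate numbers of the labels name no shared litter, and the difference of replicate 1 and 2 correlated at r = 0.011 between the diets over genes. With a replicate block in edgeR an unadjusted p under 0.05 was found for 6 members and 1482 genes, in place of 12 and 2171, and 0 were called. The median log2 fold change of the members tested (0.73) was 2.32 with at least 10 counts in every library, -0.90 in limma-voom and -2.78 to 1.67 with a library left out. The log2 ratio of summed CPM was 0.51 for members with no shared window and -1.72 to 0.29 with a library left out.

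The direction reversed for Rpl10a-ps1 (-0.56) and Rpl3-ps1 (0.19) with the replicate block and for Rpl3-ps1 (1.0) in limma-voom. With a library left out it ranged from -8.87 to 0.46 for Rpl14-ps1, from -0.77 to 5.26 for Rps19-ps6, from -4.09 to 2.55 for Rpl10a-ps1, from -7.07 to 7.97 for Rpl10-ps6, from -4.46 to 4.92 for Rpl3-ps1, from -11.33 to 0.36 for Rps2-ps10 and from -1.08 to 3.12 for Rps19-ps3. The cause was not tested.

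The median log2 member to parent ratio was -8.59 and -9.05 in ND and -8.45 and -6.0 in HFD with 5 counts added, and -7.74, -8.08, -7.79 and -5.28 in the 4 libraries per kilobase of exon. Members detected were 49, 56, 58 and 27 at 10 counts and 6, 20, 44 and 16 with the limit from other -ps pseudogenes.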
